A study of Homo sapiens with 12 samples.

Results

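The genes described here are 9 receptors and adhesion molecules of the cell surface, ICAM1, ICAM3, ICAM5, VCAM1, ALCAM, MCAM, L1CAM, CD58 and CD44, measured in a melanoma line exposed to medium from macrophages. They were chosen by name, by exact match to the gene names of the deposited expression table, and each name gave 1 of the 58288 gene identifiers in the count table. Of the 9 genes, 8 passed the filter on low counts that left 14088 genes for testing, and VCAM1 did not. RNA was measured in MV3, a line established from a human melanoma metastasis in a lymph node, with 3 libraries in each of 4 groups. The M1 group had 24 h in medium conditioned by macrophages of the THP-1 monocyte line that had been differentiated with PMA, a phorbol ester, and then polarized with LPS and IFNγ. The M2 group had the same exposure to medium from THP-1 macrophages differentiated with PMA and polarized with IL4 and IL13. The M0 group had medium from THP-1 macrophages differentiated with PMA and not polarized further, and the Ctrl group had fresh RPMI medium that no cells had conditioned. Cells of all 4 groups had been grown with 10% serum and were then kept for 3 h in RPMI with 1% serum before the exposure. MV3 is a single line and THP-1 a leukaemia line, the labels do not say that replicates were separate cultures, and carry-over of PMA, LPS or the added cytokines in the media was not measured. P-values therefore measure the spread between these libraries, which may be technical, and each comparison with Ctrl includes conditioning of the medium itself.

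ICAM1, ICAM3, ICAM5, VCAM1, ALCAM, MCAM and L1CAM belong to the immunoglobulin superfamily, and their outer domains bind partners on neighbouring cells. ICAM1 and VCAM1 are the inducible members best known from inflamed endothelium, where they hold leukocytes through integrins, and their transcription is known to respond to NF-kB, with ICAM1 also responding to interferon-gamma. CD58 is the ligand of CD2 on T cells and natural killer cells, and CD44 is the main receptor for the matrix sugar hyaluronan. In melanoma, MCAM, ALCAM and L1CAM have long been studied as surface proteins of invasive tumours.

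The promoters of ICAM1 and VCAM1 are shown because the values of these inducible receptors lay farthest apart in these cells, with ICAM1 among the most raised genes and VCAM1 almost without reads. Each sequence runs 5′ to 3′ from 250 bases before to 50 bases after the start of the gene in RefSeq on GRCh38.p14, at chr19:10270870-10271169 on the forward strand for ICAM1 and at chr1:100719492-100719791 on the forward strand for VCAM1. Capitals mark every match to the motifs searched, which are spelled out after the sequences.
ICAM1: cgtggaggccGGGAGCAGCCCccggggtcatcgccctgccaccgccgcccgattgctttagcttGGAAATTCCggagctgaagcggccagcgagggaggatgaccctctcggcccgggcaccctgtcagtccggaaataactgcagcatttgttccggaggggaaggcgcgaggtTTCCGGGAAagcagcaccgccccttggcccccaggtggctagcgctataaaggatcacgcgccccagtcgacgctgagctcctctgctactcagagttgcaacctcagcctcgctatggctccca
VCAM1: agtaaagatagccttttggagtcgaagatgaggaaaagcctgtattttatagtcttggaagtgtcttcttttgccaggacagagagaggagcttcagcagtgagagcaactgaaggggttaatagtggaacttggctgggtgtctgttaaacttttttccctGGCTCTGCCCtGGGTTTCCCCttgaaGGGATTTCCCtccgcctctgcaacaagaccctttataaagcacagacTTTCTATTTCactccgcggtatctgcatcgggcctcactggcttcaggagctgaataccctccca

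Motifs were searched on both strands of the RefSeq windows of all 9 genes, which had 12 windows between them, and of 35116 promoters in all. The NF-kB motif GGAANTTCC was found in the window of ICAM1, as GGAAATTCC from position -186 to position -178 relative to the start, and in that of none of the other 8 genes; 0.965% of all promoters held it. The STAT motif TTCNNNGAA was found in ICAM1 as TTCCGGGAA from -75 to -67, again in none of the other 8, and in 7.66% of all promoters. The looser NF-kB motif (GGG, then 5 bases of any kind, then CC) matched in 9 of 9 genes and in 58.7% of all promoters. In ICAM1 its matches lay from -240 to -231 and from -239 to -230 on opposite strands, overlapping each other, and in VCAM1 they began at -88, -77 and -62. The interferon-response motif (TTTC, then 2 bases of any kind, then TTTC) matched in VCAM1, as TTTCTATTTC from -15 to -6, in none of the other 8 and in 3.57% of all promoters. The AP-1 motif TGANTCA was in 0 of the 9 genes' windows and in 7.71% of all promoters. A match describes letters in a window and does not show that a factor binds there.

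Library totals ran from 21788397 to 42921242 counts, and 3 counts, the most that a count of 0 allows, correspond to 0.0699 to 0.138 CPM in a single library. CPM are counts divided by the TMM-scaled size of the library. None of 12 macrophage and leukocyte markers passed the filter, and their summed level was 0.634 to 0.846 CPM in M1, 0.322 to 0.639 CPM in M2, 0.559 to 0.776 CPM in M0 cells and 0.737 to 1.00 in Ctrl cells, with AIF1 at 0 reads in all 12 libraries. None of 6 endothelial markers passed it either, and their summed level was at most 0.603 CPM in any library, with CLDN5 at 0 reads. Although the label is that of a melanoma line, markers of pigmented melanoma were nearly absent. TYR had 0 reads, MLANA, SOX10, DCT and PMEL had at most 4 in a library, and MITF, the only one of 6 tested, stood at 2.18 ± 0.259 CPM in M1, 2.16 ± 0.185 in M2, 3.10 ± 0.182 in M0 and 1.17 ± 0.387 in Ctrl (SD, n = 3 each). Of 6 markers of the dedifferentiated state, 5 were tested, and NGFR did not pass the filter. Their summed level was 17508 to 18855 CPM in M1, 14149 to 14631 CPM in M2, 13441 to 14290.1 CPM in M0 cells and 12205 to 13351 in Ctrl cells. Most of it came from VIM, at 9750 CPM in M1 and 6303 in Ctrl, and FN1, at 6381 and 3251, so the sum describes these more than the list. S100A4 stood at 10.3 CPM in M1 and 46.0 in Ctrl. In bulk libraries, fewer cells with a transcript and less transcript per cell cannot be told apart.

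ICAM1, the ligand of the leukocyte integrins LFA-1 and Mac-1, had the largest fold change of the 8 tested receptors in 5 of the 6 comparisons, M2 against M0 being the exception. Its level was 569, 536 and 568 CPM in the M1 libraries, 61.1, 63.8 and 61.3 CPM in M2, 68.4, 73.1 and 99.4 CPM in M0 cells and 17.6, 12.7 and 14.9 in Ctrl cells. The 4 groups did not overlap, and the 3 M1 libraries stood far above all others. Means were 558 ± 19 CPM in M1, 62.1 ± 1.51 in M2, 80.3 ± 16.7 in M0 and 15.1 ± 2.45 in Ctrl (SD, n = 3 each). Against M0, ICAM1 rose 6.94-fold with M1 medium (log2 2.79 ± 0.17 SE, adjusted p = 1.11e-10 by edgeR's quasi-likelihood test with Benjamini-Hochberg adjustment over 14088 genes), the 121st highest log2 fold change of all genes tested. Against M2 it was 8.99-fold higher in M1 (log2 3.17 ± 0.04, adjusted p = 2.77e-11), the 91st highest. Against Ctrl it rose 36.7-fold in M1 (log2 5.20 ± 0.14, adjusted p = 7.3e-14), 4.09-fold in M2 (log2 2.03 ± 0.14, adjusted p = 2.39e-09) and 5.29-fold in M0 (log2 2.40 ± 0.21, adjusted p = 4.51e-10). All adjusted p-values in the text come from this test unless another is named, SE reflects how far the 3 libraries of each group scattered in log2 CPM and is not the error of the edgeR fit, and the comparisons with Ctrl share their Ctrl libraries, as those with M0 share theirs.

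The lower level of ICAM1 in M2 than in M0 was small, and smaller still without M0 replicate 3. The log2 difference was -0.37 ± 0.17 (adjusted p = 0.0338), and M0 replicate 3, at 99.4 CPM, was the highest library of its group. Without that library the log2 difference was -0.18 (adjusted p = 0.23). Without M2 replicate 1, 2 or 3 in turn it kept its size, at -0.36, -0.39 and -0.36, and the adjusted p was 0.086, 0.0754 and 0.0989.

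**Figure D1:**
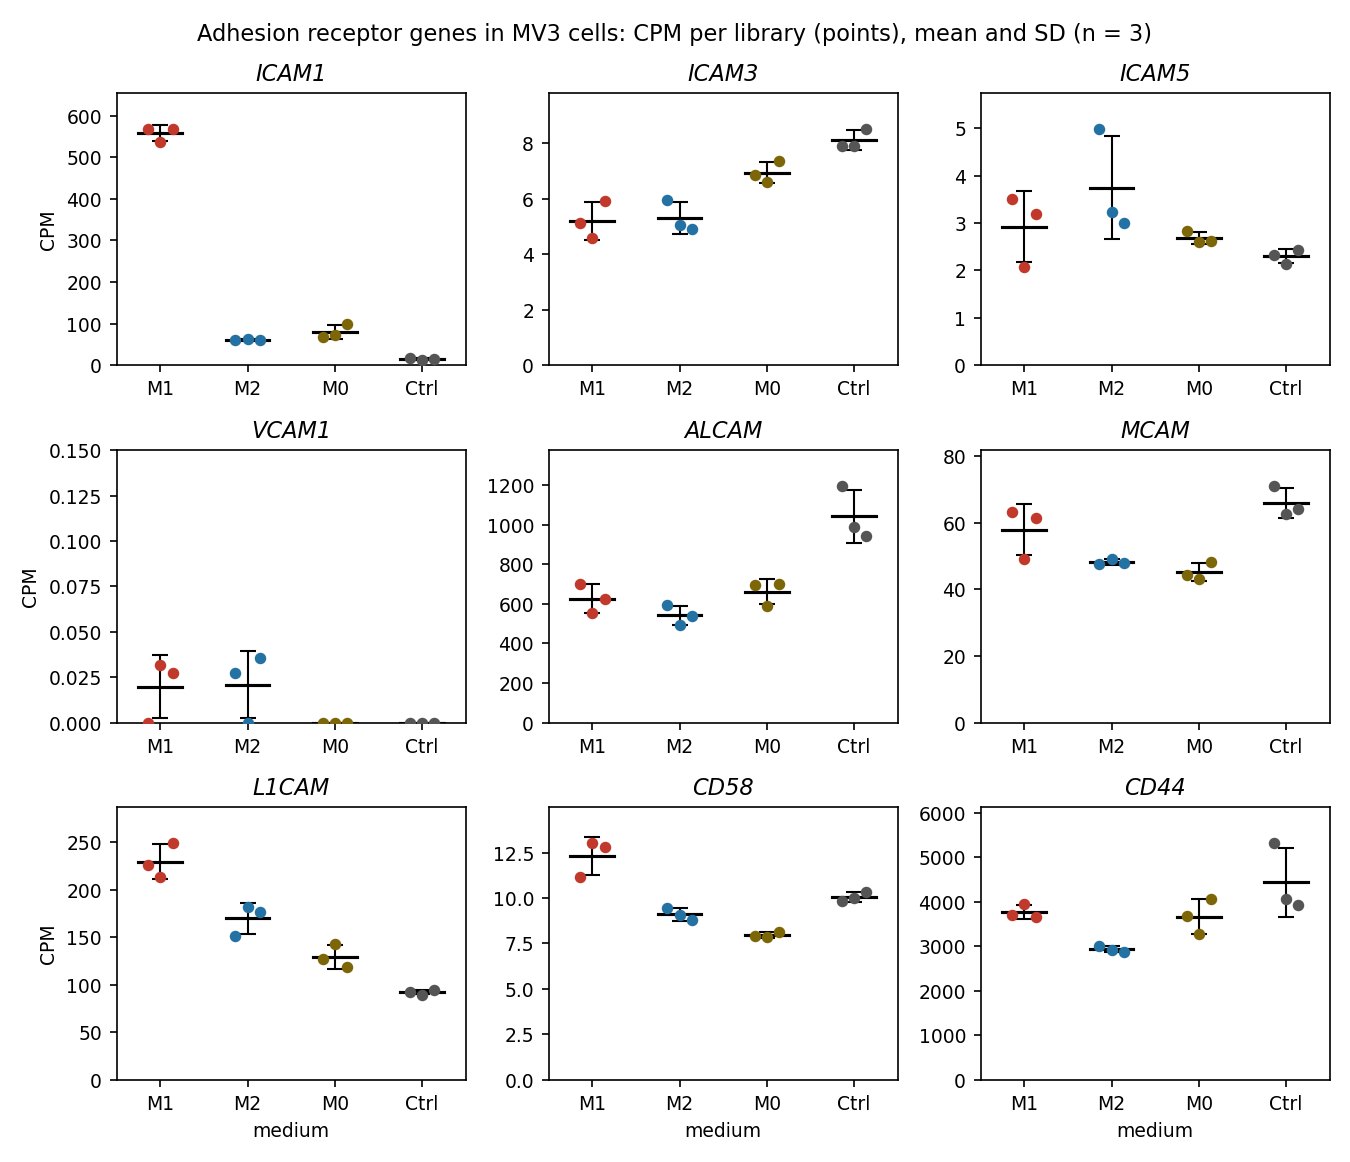
Levels of the 9 receptor genes in CPM (vertical axes, each from 0) by medium, with each library as a point and the mean and SD of 3 libraries as bars. ICAM1 stands at 536 to 569 CPM in the M1 libraries and at no more than 99.4 CPM in any other, L1CAM is above Ctrl in all conditioned media, ALCAM is below it, and VCAM1 is at or near 0.

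VCAM1, the ligand of the integrin that pairs ITGA4 with ITGB1, was at the limit of detection in every group. It had 0, 1 and 1 reads in M1, 1, 0 and 1 reads in M2, and 0 reads in each library of M0 and of Ctrl, 4 reads in all 12 libraries together. All of these lie under the limit of 3 counts, so a difference between media was not detectable at this depth and no fold change is given. The VCAM1 promoter printed above, with 3 matches to the looser NF-kB motif, therefore belongs to a gene with almost no reads in MV3 cells.

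ICAM3, a further ligand of LFA-1 that is known from resting leukocytes, was low and fell in the 2 polarized media. Its level was 5.12, 4.58 and 5.92 CPM in M1, 5.97, 5.07 and 4.90 CPM in M2, 6.85, 6.61 and 7.36 CPM in M0 cells and 7.90, 7.90 and 8.54 in Ctrl cells. Every M1 and M2 library lay under every M0 and Ctrl library, while M1 and M2 overlapped each other. ICAM3 was lower in M1 than in M0 (log2 -0.41 ± 0.12, adjusted p = 0.00993) and in M2 than in M0 (log2 -0.38 ± 0.10, adjusted p = 0.0334). Without M0 replicate 3 these values were -0.35 (adjusted p = 0.0543) and -0.33 (adjusted p = 0.141), and the call in M2 was also lost without M2 replicate 2 (log2 -0.35, adjusted p = 0.113), M2 replicate 3 (log2 -0.33, adjusted p = 0.13) or M0 replicate 1 (log2 -0.39, adjusted p = 0.0751). Against Ctrl, ICAM3 was lower by log2 -0.64 ± 0.11 in M1 (adjusted p = 0.00018) and by log2 -0.60 ± 0.09 in M2 (adjusted p = 0.000355), and the log2 difference of M0 from Ctrl was -0.22 ± 0.06 (adjusted p = 0.115). The antisense gene AC114271.1 overlaps 2101 bases of ICAM3 exons on the opposite strand and had 40 to 97 reads per library beside 137 to 346 for ICAM3. Since the strand setting of the counting is not given in the sources used here, reads of overlapping genes on opposite strands cannot be told apart.

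ICAM5, known as telencephalin from neurons of the forebrain, was the lowest of the 8 tested receptors. Its level was 3.5, 2.08 and 3.19 CPM in M1, 4.99, 3.23 and 3.00 CPM in M2, 2.83, 2.61 and 2.63 CPM in M0 cells and 2.33, 2.14 and 2.44 in Ctrl cells. The M2 libraries lay above those of M0 and Ctrl, and the M1 libraries ran from below Ctrl to within the range of M2. The only called difference was between M2 and Ctrl (log2 0.71 ± 0.23, adjusted p = 0.00737), and without M2 replicate 1 it was 0.42 (adjusted p = 0.0888). For M1 against Ctrl it was 0.35 ± 0.23 (adjusted p = 0.15), and without M1 replicate 2 it was called, at 0.545 (adjusted p = 0.0252). The log2 difference was 0.13 ± 0.23 for M1 against M0 (adjusted p = 0.643) and 0.49 ± 0.23 for M2 against M0 (adjusted p = 0.105).

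ICAM1 (chr19:10270835-10286615), ICAM4 (chr19:10286967-10288522) and ICAM5 (chr19:10289981-10296778) lie in that order on the forward strand of chromosome 19 of GRCh38. ICAM3 (chr19:10333776-10339823) lies in the same region on the reverse strand. ICAM4, which carries a red cell blood group and begins 351 bases beyond the end of ICAM1, had 65, 49 and 67 reads in M1, 5, 4 and 5 reads in M2, 1, 2 and 2 reads in M0 and 0, 3 and 0 reads in Ctrl. The M1 libraries were clear of the others, all of which had at most 5 reads. ICAM4 was higher in M1 than in M0 by log2 4.66 ± 0.21 (adjusted p = 8.43e-07), a fitted value that depends on the few M0 reads. By limma on the deposited log2 values, which are compressed at low counts, the difference was 2.26 (adjusted p = 4.9e-07). ICAM4 passed the filter on low counts through its M1 reads alone, so its call lends no support to that of ICAM1. MRPL4, a mitochondrial ribosomal gene upstream of ICAM1, was lower in M1 than in M0 (log2 -0.77, adjusted p = 0.000126), as was RAVER1, a gene for an RNA-binding protein beside ICAM3 (log2 -0.64, adjusted p = 0.00298). The antisense gene AC011511.5 overlaps 815 bases of ICAM1 exons at its 3′ end and had 24 reads over the 3 M1 libraries, 4 over M2, 2 over M0 and 2 over Ctrl, against 60014, 5766, 6434 and 1630 reads for ICAM1. It runs from 10285801 to 10289019 and so also spans ICAM4. Its overlap with ICAM4 exons was not measured, and with the strand setting unknown, reads of the 2 genes cannot be told apart where they overlap.

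**Figure D2:**
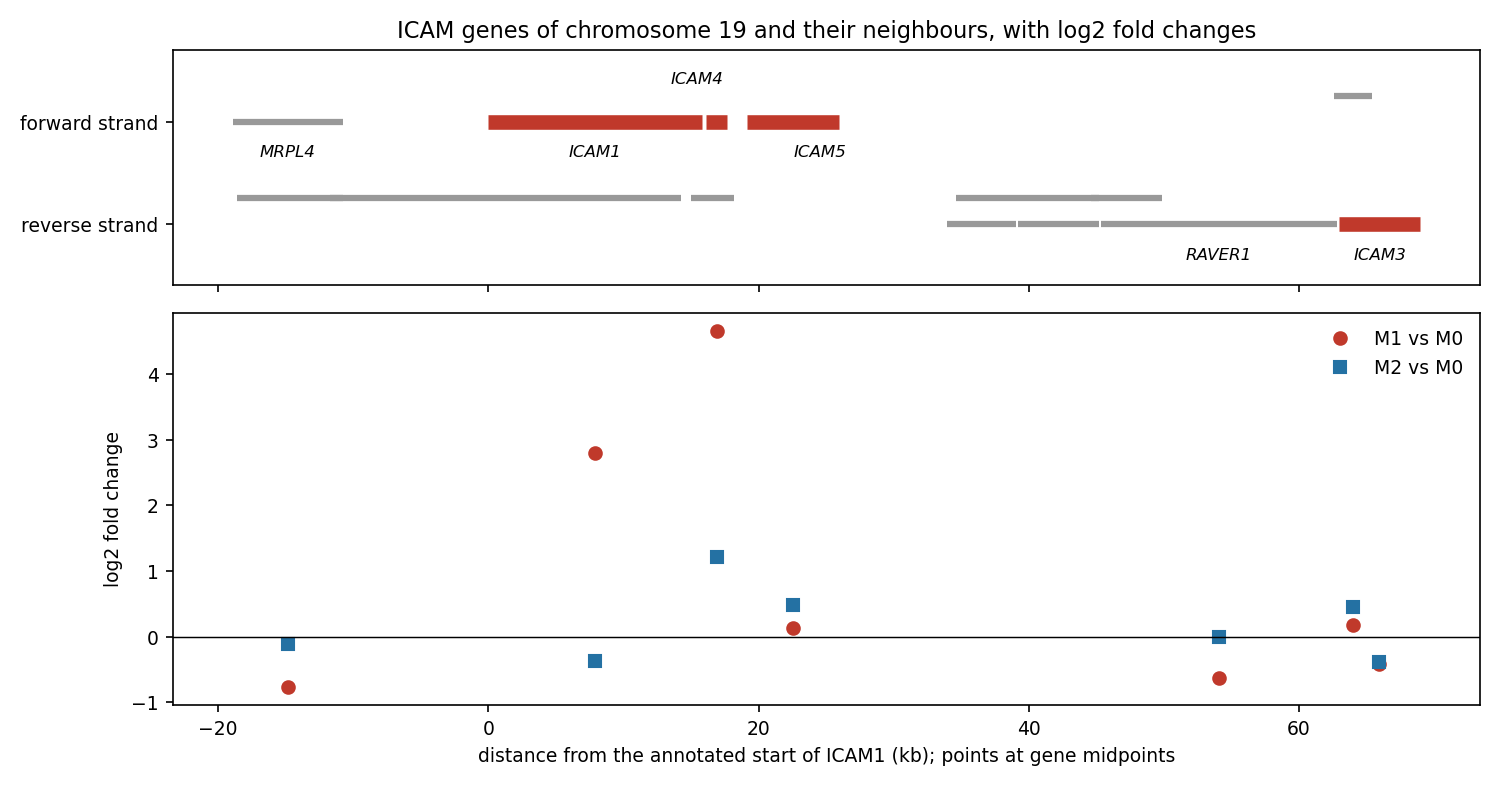
Top, ICAM genes (red) and neighbouring genes (grey) by strand, at their distance in kb from the annotated start of ICAM1, with genes with clone names, most of them antisense, offset upward. Bottom, log2 fold change of each tested gene at its midpoint, with ICAM1 at 2.79 and ICAM4 at 4.66 in M1 against M0, and ICAM5 and ICAM3 at 0.13 and -0.41.

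L1CAM, a neural adhesion molecule that binds itself and integrins, rose in each conditioned medium and was called in all 6 comparisons. Its level was 226, 213 and 249 CPM in M1, 152, 183 and 176 CPM in M2, 127, 143 and 118 CPM in M0 cells and 92.8, 89.7 and 94.2 in Ctrl cells. The 4 groups did not overlap, with M1 highest, then M2, M0 and Ctrl. L1CAM was 1.78-fold higher in M1 than in M0 (log2 0.83 ± 0.10, adjusted p = 1.5e-06), 1.32-fold higher in M2 than in M0 (log2 0.40 ± 0.11, adjusted p = 0.0043) and 1.35-fold higher in M1 than in M2 (log2 0.43 ± 0.10, adjusted p = 0.00103). Against Ctrl it was 2.49-fold higher in M1 (log2 1.32 ± 0.07, adjusted p = 1.89e-09), 1.85-fold higher in M2 (log2 0.88 ± 0.08, adjusted p = 2.17e-07) and 1.40-fold higher in M0 (log2 0.49 ± 0.08, adjusted p = 0.000129). In M2, L1CAM was thus above M0 where ICAM1 was below it. L1CAM lies at chrX:153861514-153886174 on the reverse strand.

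CD58, the ligand through which T cells bind targets by CD2, was higher in M1 than in every other group. Its level was 11.1, 13.0 and 12.8 CPM in M1, 9.47, 9.05 and 8.76 CPM in M2, 7.90, 7.87 and 8.13 CPM in M0 cells and 9.82, 9.98 and 10.4 in Ctrl cells. The groups did not overlap, and Ctrl stood between M1 and M2. CD58 rose by log2 0.63 ± 0.07 in M1 against M0 (adjusted p = 4.9e-05), by 0.44 ± 0.08 in M1 against M2 (adjusted p = 0.00171) and by 0.29 ± 0.07 in M1 against Ctrl (adjusted p = 0.00788, or 0.0584 with no filter on low counts). It was lower in M0 than in Ctrl (log2 -0.33 ± 0.03, adjusted p = 0.0057), so the direction of M1 against M0 and that of M0 against Ctrl were opposite. The difference of M2 was 0.19 ± 0.04 from M0 (adjusted p = 0.148) and -0.14 ± 0.04 from Ctrl (adjusted p = 0.178). CD58 lies at chr1:116514535-116571039 on the reverse strand.

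MCAM, a melanoma adhesion molecule also known as CD146, fell with M0 and M2 medium and was higher with M1 medium than with either. Its level was 63.2, 49.2 and 61.5 CPM in M1, 47.6, 49.1 and 47.9 CPM in M2, 44.4, 43.1 and 48.3 CPM in M0 cells and 71.1, 62.6 and 64.0 in Ctrl cells. M1 replicate 2 lay close to the M2 libraries, and M1 replicate 1 overlapped Ctrl. MCAM was lower than in Ctrl by log2 -0.54 ± 0.07 in M0 (adjusted p = 7.12e-05) and by -0.45 ± 0.06 in M2 (adjusted p = 0.000297), and the difference of M1 was -0.19 ± 0.13 (adjusted p = 0.0676). Without M1 replicate 1 that difference was -0.24 (adjusted p = 0.0352). In M1 it was higher than in M0 (log2 0.36 ± 0.12, adjusted p = 0.00326) and than in M2 (log2 0.27 ± 0.11, adjusted p = 0.0291). Without M1 replicate 1, M1 replicate 3 and M2 replicates 1, 2 and 3 in turn, the difference between M1 and M2 was 0.21, 0.23, 0.27, 0.28 and 0.26, with an adjusted p of 0.118, 0.0895, 0.081, 0.0581 and 0.0805. MCAM, at chr11:119308529-119321521 on the reverse strand, shares 509 exon bases with CBL on the opposite strand, and CBL had 3858 to 8069 reads per library beside 925 to 3112 for MCAM.

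ALCAM, which binds CD6 on T cells and also itself, was abundant and fell with all 3 conditioned media. Its level was 699, 552 and 625 CPM in M1, 593, 494 and 538 CPM in M2, 694, 588 and 700.2 CPM in M0 cells and 1197, 986 and 944 in Ctrl cells. Every library of the conditioned media lay under every Ctrl library, and the 3 conditioned media overlapped each other. The log2 difference from Ctrl was -0.74 ± 0.14 in M1 (adjusted p = 1.41e-05), -0.95 ± 0.13 in M2 (adjusted p = 1.27e-06) and -0.66 ± 0.13 in M0 (adjusted p = 6.52e-05). Among the conditioned media the differences were -0.08 ± 0.13 for M1 against M0 (adjusted p = 0.55), -0.29 ± 0.11 for M2 against M0 (adjusted p = 0.0572) and 0.21 ± 0.12 for M1 against M2 (adjusted p = 0.146). The second of these was called by DESeq2 (log2 -0.29, adjusted p = 0.0311) and by limma on the deposited log2 values (log2 -0.29, adjusted p = 0.0496). ALCAM lies at chr3:105366909-105576900 on the forward strand.

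CD44, the hyaluronan receptor, was the most abundant of the 9 genes, with 0.288% to 0.543% of all counts in a library and a place between the 3rd and the 12th of all genes. Its level was 3693, 3952 and 3666 CPM in M1, 3002, 2914 and 2880.1 CPM in M2, 3682, 3271 and 4053 CPM in M0 cells and 5320.1, 4051 and 3927 in Ctrl cells. Ctrl replicate 1 stood above the rest of its group, and the M2 libraries were the lowest of all. CD44 was lower in M2 than in Ctrl (log2 -0.60 ± 0.14, adjusted p = 8.81e-05) and higher in M1 than in M2 (log2 0.36 ± 0.04, adjusted p = 0.012). Its difference from M0 was -0.32 ± 0.09 in M2 (adjusted p = 0.0294) and 0.04 ± 0.10 in M1 (adjusted p = 0.766). Without M0 replicate 3 the first of these was -0.24 (adjusted p = 0.147), and without M2 replicate 1, 2 or 3 or M0 replicate 1 it stayed at -0.34, -0.32, -0.31 and -0.32, with an adjusted p of 0.0511, 0.0855, 0.0941 and 0.0681. The differences from Ctrl were -0.27 ± 0.17 in M0 (adjusted p = 0.0283) and -0.23 ± 0.14 in M1 (adjusted p = 0.0497), in groups that overlapped, and without Ctrl replicate 1 they were -0.14 (adjusted p = 0.118) and -0.09 (adjusted p = 0.316). The call in M0 was also lost without M0 replicate 2 (log2 -0.21, adjusted p = 0.0932), and that in M1 without M1 replicate 1, 2 or 3 (log2 -0.21, -0.26 and -0.20, adjusted p = 0.124, 0.0521 and 0.13). CD44 lies at chr11:35138870-35232402 on the forward strand.

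Counted over the receptors, 5 of the 8 tested were called in M1 against M0, beside 52.2% of all genes tested. Of these, ICAM1, L1CAM, CD58 and MCAM were higher, where 25.5% of all genes were, and ICAM3 was lower, where 26.7% were. In M2 against M0, 4 of 8 were called, L1CAM higher and ICAM1, ICAM3 and CD44 lower, beside 25.2% of all genes called, 12.5% higher and 12.7% lower. Leaving out 1 library took that count to between 1 and 5 of 8. In M1 against M2, 5 of 8 were called, beside 32.5% of all genes. ICAM1, L1CAM, CD58, MCAM and CD44 were higher and 0 were lower by edgeR, where 15.9% and 16.6% of all genes were. At an unadjusted p below 0.05, edgeR also gave 0 lower, and so did DESeq2 and limma at an adjusted p below 0.05. The median log2 fold change of the 8 tested receptors was 0.24 in M1 against M0, -0.10 in M2 against M0 and 0.31 in M1 against M2, beside -0.01, 0.00 and -0.03 over all genes tested.

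Against Ctrl the directions were mixed in each conditioned medium. In M1, 6 of 8 were called, beside 70.2% of all genes, with ICAM1, L1CAM and CD58 higher and ICAM3, ALCAM and CD44 lower, where 35.2% of all genes were higher and 35.0% lower. In M2, 7 of 8 were called, beside 66.5% of all genes, with ICAM1, ICAM5 and L1CAM higher and ICAM3, ALCAM, MCAM and CD44 lower, where 34.1% were higher and 32.4% lower. In M0, 6 of 8 were called, beside 61.7% of all genes, with ICAM1 and L1CAM higher and ALCAM, MCAM, CD58 and CD44 lower, where 31.1% were higher and 30.6% lower. Median log2 fold changes of the 8 receptors were 0.05 in M1, -0.30 in M2 and -0.25 in M0, beside 0.00, 0.02 and 0.00 over all genes. Since most genes tested were called against Ctrl, these counts say little about the receptors as a group.

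**Figure D3:**
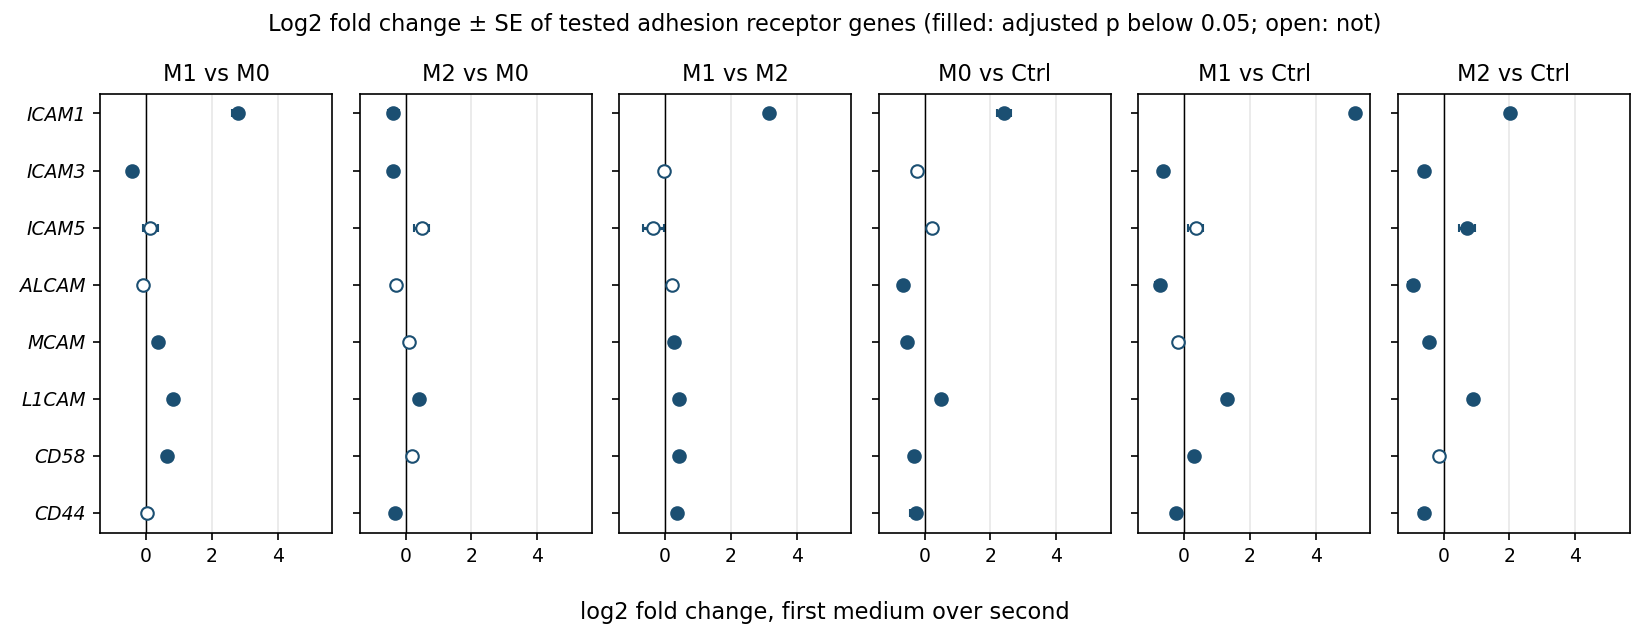
Log2 fold changes (horizontal axis, first medium over second) of the 8 tested receptor genes in the 6 comparisons, with SE as bars and filled points where adjusted p was below 0.05. ICAM1 reaches 5.20 in M1 against Ctrl, while the other receptors lie between -0.95 and 1.32.

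Levels were set beside each other per kilobase of annotated exon, since counts grow with transcript length. In M1 the order was CD44 at 377 ± 15.8 CPM per kilobase, ICAM1 at 150 ± 5.12, ALCAM at 87.1 ± 10.2, L1CAM at 31.6 ± 2.52, MCAM at 7.80 ± 1.03, CD58 at 6.91 ± 0.582, ICAM3 at 1.76 ± 0.229 and ICAM5 at 0.749 ± 0.191 (SD, n = 3). MCAM and CD58 overlapped there, and the other neighbours in this order did not. In M2, ICAM1 was the 4th at 16.7 ± 0.408 CPM per kilobase, under L1CAM at 23.4 ± 2.23. In M0 it was the 3rd at 21.7 ± 4.52, overlapping L1CAM at 17.8 ± 1.69. In Ctrl the order was CD44 at 443 ± 77.1, ALCAM at 145 ± 18.9, L1CAM at 12.7 ± 0.322, MCAM at 8.88 ± 0.610, CD58 at 5.64 ± 0.153, ICAM1 at 4.07 ± 0.662, ICAM3 at 2.75 ± 0.124 and ICAM5 at 0.590 ± 0.0383. By this measure ICAM1 was the 2nd receptor of the set in M1 cells and the 6th in Ctrl cells, while CD44 was the highest and ICAM5 the lowest of the 8 tested in all 4 groups. The length counts all annotated exons of a gene, not those of the transcripts present, and the places depend on it. In CPM, ALCAM at 625 ± 73.4 stood above ICAM1 at 558 ± 19 in M1, with overlapping libraries, and ICAM1 at 15.1 ± 2.45 above CD58 at 10.05 ± 0.272 in Ctrl.

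**Figure D4:**
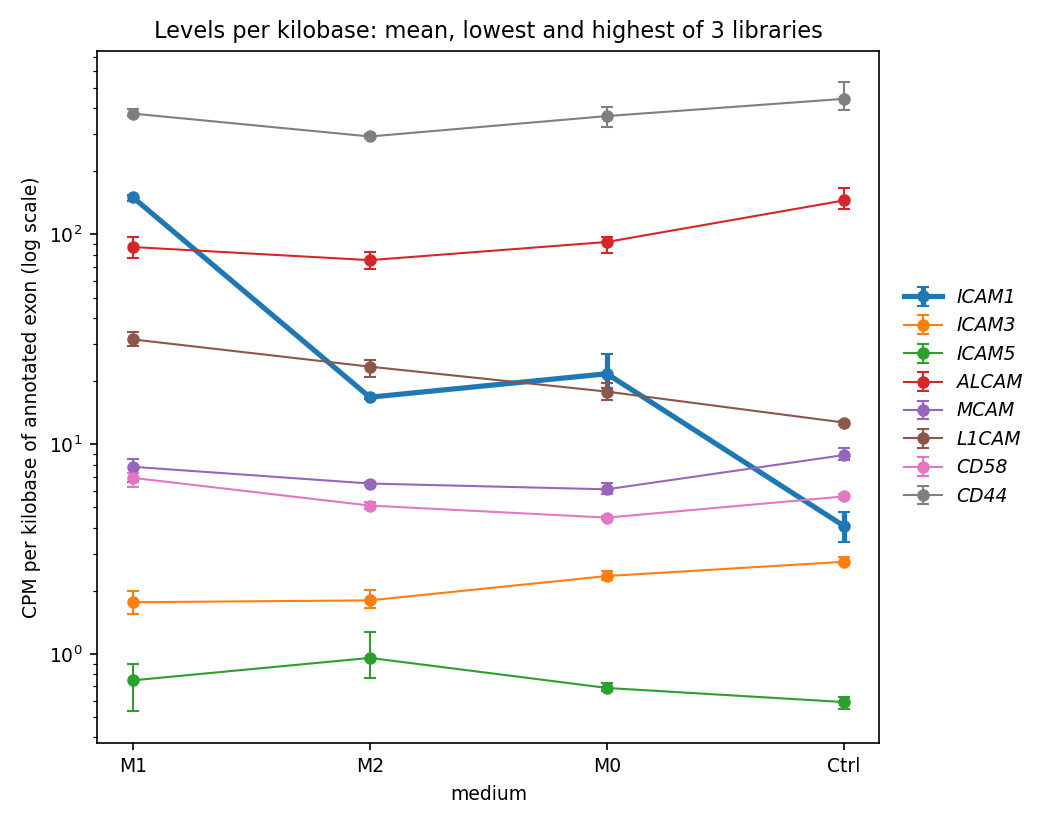
Levels of the 8 tested receptor genes in CPM per kilobase of annotated exon (vertical log axis) by medium, as the mean with bars from the lowest to the highest of 3 libraries; lines join the values of a gene. ICAM1 (thick line) lies at 150 in M1, 16.7 in M2, 21.7 in M0 and 4.07 in Ctrl.

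Genes whose log2 CPM followed that of ICAM1 most closely over the 12 libraries were MME, a surface peptidase (Pearson r = 0.9961), ESM1, a secreted proteoglycan (0.9953), DSE, an epimerase of dermatan sulfate (0.9942), PRDM1, a transcriptional repressor (0.9939), and PID1 (0.9928), among 14087 other genes tested. The 12 libraries fall into 4 groups, so these values mostly describe the 4 group means and are given with no test. Pearson r does not reflect the size of a change, and MME changed far less than ICAM1. It stood at 390 ± 10.7 CPM in M1, 260 ± 6.36 in M2, 277 ± 11.8 in M0 and 205 ± 8.40 in Ctrl. ESM1 stood at 1869 ± 84.3 CPM in M1, 345 ± 15.4 in M2, 385 ± 58.1 in M0 and 131 ± 2.76 in Ctrl (SD, n = 3 each). PRDM1 stood at 48.8 ± 1.32 CPM in M1, 9.69 ± 0.771 in M2, 12.5 ± 1.90 in M0 and 2.47 ± 0.414 in Ctrl. Both had M0 above M2 by their means, as ICAM1 had, which their choice by likeness to ICAM1 favours. For L1CAM close genes were SH3PXD2B (0.9902), SYNGR3 (0.9886), and ITGB3, an integrin subunit, and SCG5 (0.9865 each). ITGB3 stood at 8.57 ± 0.629 CPM in M1, 3.05 ± 0.457 in M2, 1.47 ± 0.388 in M0 and 0.394 ± 0.0942 in Ctrl. That is the order of L1CAM, by likeness to which ITGB3 was picked. The closest gene to ALCAM was LPCAT3 (0.9916), to CD44 ARFIP1 (0.9692), to MCAM GLMP (0.9532), to CD58 DOCK10 (0.9582), to ICAM3 RANGAP1 (0.9734) and to ICAM5 AC009506.1 (0.8981).

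Of 12 genes for partners of these receptors on other cells, ITGA4 and ITGB1 passed the filter and 10 had too few reads. CD2 and CD6, the partners of CD58 and ALCAM, had 0 reads in all 12 libraries, and ITGAL and ITGB2, the subunits of LFA-1, had at most 7 reads in a library. ITGB1, the shared subunit of the beta-1 integrins, stood at 1682 ± 59.5 CPM in M1 cells and 1251 ± 19.9 in M0 cells (log2 0.43 ± 0.03, adjusted p = 5.59e-05). ITGA4, whose product with that of ITGB1 binds VCAM1, stood at 135 ± 15.4 CPM in M0 cells and 263 ± 30.6 in Ctrl cells (log2 -0.96 ± 0.13, adjusted p = 2.46e-07).

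Of 38 other genes of the immunoglobulin superfamily and related adhesion molecules, 19 were tested. In M1 against M0, 7 rose, 4 fell and 8 were not called, beside 25.5% of all genes higher and 26.7% lower, with a median log2 fold change of 0.07. ICAM4, among the 7, passed the filter through its M1 reads alone, so it could be called there only as higher. NRCAM, also among them and among the 4 that rose in M0 against Ctrl, averaged 0.452 CPM in M1, 0.349 in M2, 0.174 in M0 and 0.0112 in Ctrl. It passed the filter through M1 and M2 libraries, so its call as higher in M1 lends no support to that count. In M0 against Ctrl its call rests on few reads. Beside ICAM4, ESAM, an adhesion molecule of tight junctions, stood at 1.42, 1.41 and 1.39 CPM in M1 cells and 0.405, 0.279 and 0.315 in M0 cells (log2 2.04 ± 0.13, adjusted p = 8.03e-05), and BCAM, a laminin receptor, at 2.10 ± 0.444 CPM in M1 cells and 4.17 ± 0.666 in M0 cells (log2 -0.97 ± 0.21, adjusted p = 0.000247). In M0 against Ctrl, 4 rose, 7 fell and 8 were not called, beside 31.1% of all genes higher and 30.6% lower. PVR, the poliovirus receptor and a ligand of natural killer cell receptors, stood at 532, 561 and 508 CPM in M0 cells and 199, 170 and 168 in Ctrl cells (log2 1.58 ± 0.09, adjusted p = 3.69e-11). Its level was 574 ± 10.6 CPM in M1 and 589 ± 8.51 CPM in M2. CADM1 stood at 19.5 ± 1.27 CPM in M0 cells and 6.75 ± 0.767 in Ctrl cells (log2 1.52 ± 0.11, adjusted p = 3.05e-09), and ESAM at 0.333 ± 0.0646 CPM in M0 cells and 1.04 ± 0.453 in Ctrl cells (log2 -1.65 ± 0.38, adjusted p = 0.000445).

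Of 12 genes of hyaluronan and of other CD44 ligands, 8 were tested, and 7 fell and 1 rose in M0 against Ctrl, beside 31.1% of all genes higher and 30.6% lower, with a median log2 fold change of -0.76. HAS3, a hyaluronan synthase, stood at 2.36, 2.51 and 2.10 CPM in M0 cells and 38.2, 29.5 and 29.6 in Ctrl cells (log2 -3.81 ± 0.14, adjusted p = 3.74e-12). The groups lay far apart, and HAS3 was also low in M1, at 2.58 ± 0.312 CPM, and in M2, at 4.002 ± 0.251 CPM. HYAL2, a hyaluronidase, was lower in M0 by log2 -1.01 ± 0.09 (adjusted p = 3.13e-06) and VCAN, a proteoglycan that binds hyaluronan, by -0.84 ± 0.15 (adjusted p = 2.06e-06). In M1 against M0, 3 rose and 1 fell, beside 25.5% of all genes higher and 26.7% lower. TMEM2, a hyaluronidase of the cell surface, rose by log2 1.00 ± 0.07 (adjusted p = 1.94e-06) and HYAL3 by 0.98 ± 0.14 (adjusted p = 0.0003). HMMR, a hyaluronan receptor that is also a gene of dividing cells, stood at 43.0, 68.7 and 47.4 CPM in M1 cells and 104, 72.8 and 140 in M0 cells (log2 -1.0 ± 0.34, adjusted p = 0.000579).

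Of 13 proteases that shed surface proteins and their regulators, 11 were tested, with 5 higher and 1 lower in M1 against M0, where 52.2% of all genes were called, and 4 higher and 4 lower in M0 against Ctrl, where 61.7% were. Without Ctrl replicate 2 the count in M0 against Ctrl was 1 higher and 4 lower. ADAM19 stood at 129 ± 1.35 CPM in M1 cells and 46.3 ± 2.68 in M0 cells (log2 1.48 ± 0.05, adjusted p = 2.7e-09), and in Ctrl it was at 141 ± 20.6 CPM, so M0 was lower than Ctrl (log2 -1.61 ± 0.13, adjusted p = 4.13e-10). RHBDF2, which carries ADAM17 to the surface, rose by log2 0.74 ± 0.15 (adjusted p = 0.000158) and MMP14, a membrane metalloprotease, by 0.67 ± 0.07 (adjusted p = 8.13e-06) in M1 against M0. ADAM17, a protease that cuts many surface proteins from the cell, was higher in M0 than in Ctrl by log2 0.95 ± 0.14 (adjusted p = 3.38e-07), and BACE1 was lower by -1.09 ± 0.06 (adjusted p = 1.69e-09). Protein at the surface and shed protein were not measured.

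All 11 genes that link receptor tails to the cytoskeleton were tested, with 1 higher and 6 lower in M1 against M0, beside 25.5% of all genes higher and 26.7% lower. EZR, for ezrin, stood at 227 ± 6.42 CPM in M1 cells and 374 ± 11.7 in M0 cells (log2 -0.72 ± 0.03, adjusted p = 4.09e-08), and ACTN4, an actinin, was lower by -0.68 ± 0.10 (adjusted p = 2.18e-06). MSN, for moesin of the same family as ezrin, rose by log2 0.40 ± 0.09 (adjusted p = 0.000624). In M0 against Ctrl, 4 rose and 3 fell, beside 31.1% of all genes higher and 30.6% lower. The ankyrins ANK2 and ANK3, a family that binds the tail of L1CAM, rose by log2 2.05 ± 0.08 (adjusted p = 4.4e-12) and 0.83 ± 0.07 (adjusted p = 2.32e-05).

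All 14 genes for transcription factors known to act on the promoters of ICAM1 or VCAM1 were tested, with 8 higher and 4 lower in M1 against M0, beside 25.5% of all genes higher and 26.7% lower, and a median log2 fold change of 0.32. IRF1, an interferon-regulated factor, stood at 103 ± 5.31 CPM in M1 cells and 23.5 ± 2.77 in M0 cells (log2 2.14 ± 0.11, adjusted p = 1.31e-10), and REL, a subunit of NF-kB, rose by log2 1.05 ± 0.12 (adjusted p = 9.4e-06). In M0 against Ctrl the count was again 8 higher and 4 lower, beside 31.1% and 30.6% of all genes. CEBPB stood at 130 ± 3.22 CPM in M0 cells and 14.98 ± 1.16 in Ctrl cells (log2 3.11 ± 0.07, adjusted p = 8.1e-14). RELB and NFKB2, NF-kB subunits of the non-canonical arm, rose by log2 3.00 ± 0.09 (adjusted p = 6.05e-13) and 2.23 ± 0.11 (adjusted p = 1.48e-11). RELB stood at 102 ± 8.48 CPM in M1, 41.6 ± 1.19 in M2, 49.3 ± 4.89 in M0 and 6.12 ± 0.313 in Ctrl, the same order of means as ICAM1. NFKB1, NFKB2 and GATA6 had that order of means too, and the other genes of the list did not. Between M2 and M0, however, GATA6 was level, at 17.4 ± 1.39 and 17.5 ± 0.585 CPM (adjusted p = 0.973). NFKB2 overlapped there, at 81.9 ± 5.54 CPM in M2 and 94.8 ± 10.8 in M0 (adjusted p = 0.0775). RELB (adjusted p = 0.0379) and NFKB1 (adjusted p = 0.0035) were called lower in M2 than in M0. IRF1 was higher in M2, at 34.9 ± 1.25 CPM, than in M0, and CEBPB was lower in M1, at 107 ± 4.87 CPM, than in M0. REL was at 9.21 ± 0.432 CPM in M1, 4.93 ± 0.326 in M2, 4.44 ± 0.642 in M0 and 5.07 ± 0.635 in Ctrl. The part of these factors in the ICAM1 values was not tested.

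**Figure D5:**
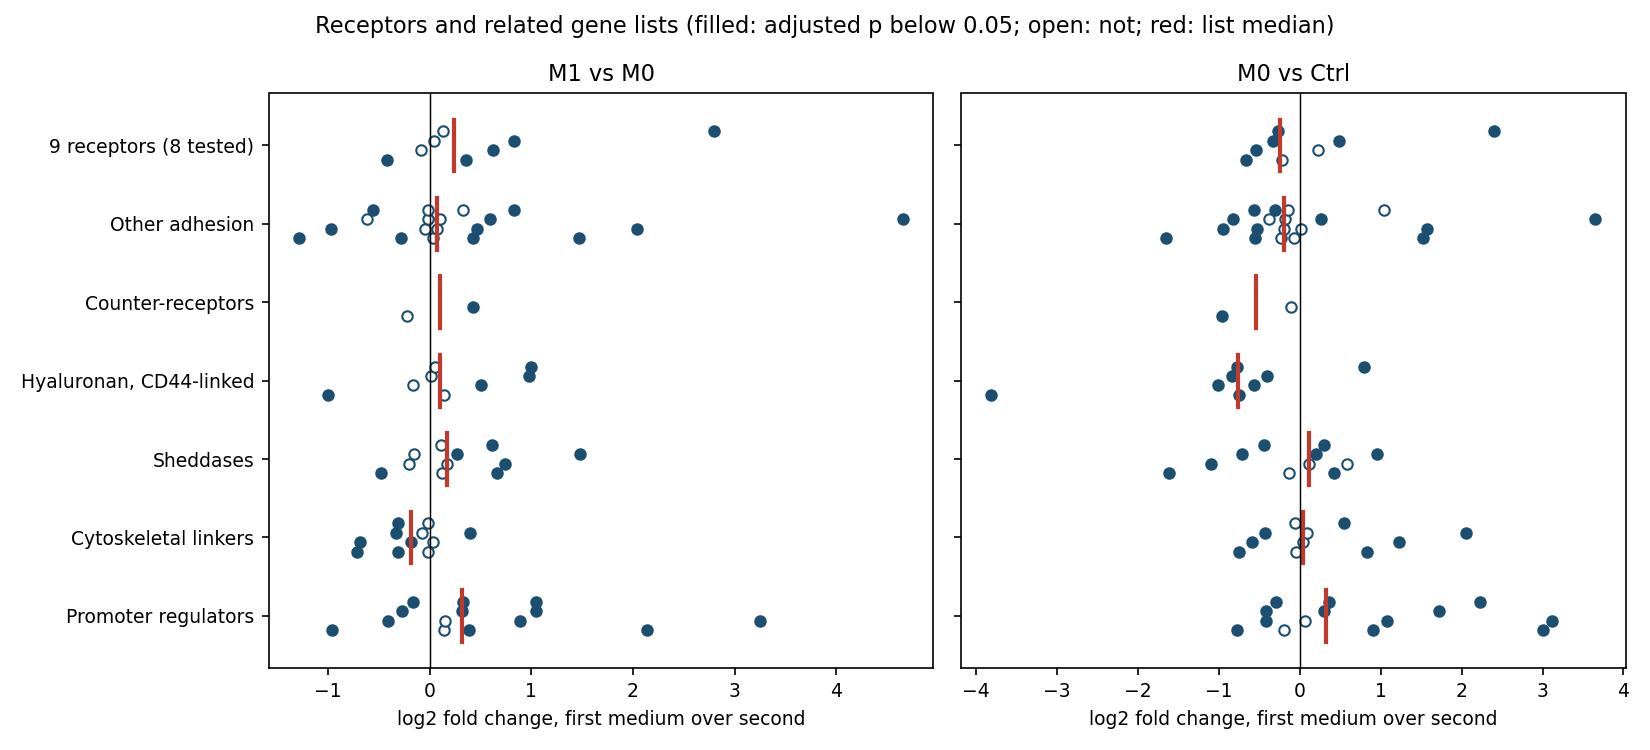
Log2 fold changes (horizontal axes) of the tested receptors and of 6 related gene lists, with filled points where adjusted p was below 0.05 and a red bar at the median of each row. In M1 against M0 the receptor farthest to the right is ICAM1 at 2.79 and the farthest list gene is ICAM4 at 4.66, and in M0 against Ctrl HAS3 stands farthest to the left at -3.81.

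Among the markers of the dedifferentiated state, S100A4 was lower in M1 than in M0 (log2 -1.25 ± 0.15, adjusted p = 2.64e-07), AXL was lower (log2 -0.76 ± 0.05, adjusted p = 4.57e-06) and FN1, for fibronectin, was higher (log2 0.71 ± 0.12, adjusted p = 3.21e-06). Between M0 and Ctrl, S100A4 was lower (log2 -0.90 ± 0.10, adjusted p = 1.7e-06), FN1 higher (log2 0.26 ± 0.12, adjusted p = 0.00787) and EGFR higher (log2 0.22 ± 0.13, adjusted p = 0.0396). MITF was lower in M1 than in M0 (log2 -0.51 ± 0.11, adjusted p = 0.0357) and higher in M0 than in Ctrl (log2 1.38 ± 0.29, adjusted p = 3.24e-05). The call of MITF in M1 against M0 was lost without M1 replicate 1 or 3 or any of the M0 libraries (adjusted p = 0.0572 to 0.139), and by DESeq2 (0.0635). That of EGFR was lost without M0 replicate 1 or 2 or Ctrl replicate 2 or 3 (adjusted p = 0.103 to 0.233), with RLE size factors (0.0509) and in the 6 libraries compared alone (0.0899), and that of FN1 in M0 against Ctrl without M0 replicate 2 (adjusted p = 0.0714). The part of these markers in the receptor values was not tested.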

How the data were processed

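Messenger RNA of MV3 cells was sequenced in 12 libraries, as stranded single reads of 50 nt in 2 runs that the files do not separate, per the labels' protocols. The authors deposited raw read counts for 58288 gene identifiers, and the count file of each sample equalled its column in 12 of 12 cases. They also deposited variance-stabilized log2 values, in which a count of 0 reads 3.22; these served only in an alternative test. The submitters' processing notes name Trimmomatic 0.36, STAR 2.5.4b, DESeq2 1.20.0 and hg38. How reads were counted, with which strand setting and annotation release, is not given in the sources used.

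The quasi-likelihood F test of edgeR 4.0.16 (R 4.3.3) was applied to the counts in 1 fit of 4 group means over 12 libraries. Libraries were scaled by TMM, genes were kept by filterByExpr at a minimum count of 10 and a minimum total of 15, and p-values of the 14088 genes left were adjusted by Benjamini-Hochberg with a threshold of 0.05. The common coefficient of variation was 0.0831. The procedure was also run on simulated counts in which few genes differed, in the M1 group alone. Far more genes were called here, so that run does not measure its error rate in these data. Log2 CPM for SE and likeness used a prior count of 2. Between replicates, chi-square per degree of freedom was 3.01 to 25.6, above sampling noise in every pair. Groups and replicate numbers came from the labels. The limit for a count of 0 covers counting error alone, as no molecular identifiers were used. Coordinates and exon lengths came from GENCODE 29 on GRCh38, which matched 58025 identifiers without their version and 55619 with it.

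The 9 genes, the lists and the tests were chosen with earlier results of these data known. All 9 genes are named; from each list, the 3 called genes of at least 1 CPM in either group with the largest changes in M1 against M0 and in M0 against Ctrl; and for each tested receptor the genes with the highest Pearson r, in full for ICAM1. MRPL4, RAVER1, ITGB3, NRCAM and the values of RELB and REL in all media were chosen for print after they were seen. So were those of IRF1 in M2 and CEBPB in M1, and the genes named as sharing the order of ICAM1. Some genes that this rule takes are not reported here. Alternatives were RLE size factors, no filter or one at 1 CPM in 3 libraries, the 6 libraries compared alone, the replicate number as a block, each library left out, M0 replicate 3 and M2 replicate 2 left out together, DESeq2 1.42.0, and limma 3.58.1 on the deposited log2 values.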

Additional observations from a re-analysis of the deposited data

How the results depend on the processing

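Over 48 receptor differences, 30 kept their direction and their side of the threshold in every alternative run, those of ICAM1 other than M2 against M0 and those of L1CAM other than M2 against M0 among them. The comparison of M2 with M0 was the least stable. It called 4 receptors and 3553 genes, and with 1 library left out it called 1 to 5 receptors and 1595 to 3906 genes, the fewest genes without M0 replicate 3 (1595), M2 replicate 3 (1905) and M2 replicate 2 (1933). Without M0 replicate 3 and M2 replicate 2 together, 520 genes and 0 of 8 receptors were called by edgeR, 1 receptor had an unadjusted p below 0.05, and other tools were not run on that subset. L1CAM in M2 against M0 was then at log2 0.29 (adjusted p = 0.115). Fewer libraries were fitted in these alternatives. The 4 differences that changed sign were not called in any alternative run, and the cause was not tested. With 1 library left out, ALCAM in M1 against M0 ran from -0.155 to 0.014 (without M1 replicate 2), CD44 in M1 against M0 from -0.0208 (without M0 replicate 2) to 0.134, ICAM5 in M1 against M0 from -0.0106 (without M1 replicate 1) to 0.324, and ICAM3 in M1 against M2 from -0.123 to 0.0597 without M1 replicate 2 and 0.079 without M2 replicate 1.

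Deviations of libraries with the same replicate number correlated at -0.0775 to 0.154 over 18 pairs, so the numbers were not taken to pair the samples. With the replicate number as a block, 7453 genes were called in M1 against M0, 3714 in M2 against M0, 4752 in M1 against M2, 8741 in M0 against Ctrl, 9943 in M1 against Ctrl and 9439 in M2 against Ctrl, and 5, 5, 6, 6, 6 and 7 receptors in the same order. The block added ALCAM in M2 against M0 (adjusted p = 0.00828) and in M1 against M2 (0.031) and MCAM in M1 against Ctrl (0.0457), and CD44 in M1 against Ctrl lost its call (0.0535). CD44 in M1 against Ctrl also lost it with the 1 CPM filter (0.0608), in the 6 libraries compared (0.0759) and by limma (0.0646), and CD44 in M0 against Ctrl in the 6 libraries compared (0.0698). Of 40 differences of list genes, 37 kept their call in every alternative run. Depth limits what can be said of VCAM1, with 4 reads in all 12 libraries, and of ICAM4, with at most 5 reads in any M2, M0 or Ctrl library.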
